A study of Mus musculus with 23 samples.

Results

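The iron and heme handling genes described here are 10 genes: Tfrc, Slc11a2 and Steap3, which bring iron into cells, Ftl1 and Fth1, the light and heavy chains of ferritin, Slc40a1, the iron exporter ferroportin, Hmox1 and Flvcr1, which break down or export heme, and Aco1 and Ireb2, which encode the iron regulatory proteins. They were listed by symbol among 47643 genes measured in mammary tumors of PyMT mice, and all 10 were found. Tfrc, Flvcr1 and Ftl1 were selected on their measured expression, which had been seen to change between groups in these data, and the comparison in which it was seen is not recorded. Their values are therefore given as a description, with no p-value, in every comparison, and calls that include them are read as no result. The other 7 were chosen by function. All 10 passed the filter on low values in every comparison, with a mean normalized count of 5 or more.

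Tumors of female mice that carry the polyoma virus middle T oncogene (PyMT) on a C57BL/6 background gave 23 libraries. In the neutralization experiment, PyMT WT mice received 100 µg of human IgG1 isotype control (5 libraries, isotype IgG) or of a neutralizing anti-IL-38 antibody (6 libraries) once a week for 5 weeks, starting when the first tumor measured 0.6 cm. In the γδ-TCR blockage experiment, which started at 13 weeks of age and also ran for 5 weeks, control hamster IgG was given to PyMT WT mice (4 libraries, WT IgG) and to PyMT IL-38 KO mice (4 libraries, IL-38 KO IgG), and other PyMT IL-38 KO mice received anti-γδ-TCR antibodies (4 libraries), at 500 µg first and 200 µg thereafter. This antibody interferes with the receptor and is not meant to remove γδ T cells, and the mice of both groups in that comparison lack IL-38. The authors nevertheless reported fewer γδ T cells in the tumors after it, and fewer CD8+ T cells in IL-38 KO tumors. The RNA came from whole dissociated tumors, so fewer cells of a type and less RNA per cell cannot be told apart in any result below.

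The libraries hold 6273049 to 15879164 reads on genes, from 3′ mRNA sequencing, in which each transcript is read near its end. Luminal epithelial markers were found in all 5 groups, with a summed level of 1726.8 to 4587.4 CPM (a gene's reads relative to the total of its library, with TMM scaling) for 10 of 10 genes. Il1f10, the gene that encodes IL-38, had 0 reads in all 23 libraries, which allows up to 0.189 to 0.478 CPM, so it cannot check the labels of the knockout. Replicate 4 of IL-38 KO IgG stood apart from the other 3 libraries of its group and resembled the 4 anti-γδ-TCR libraries. In these 5 libraries processed pseudogenes took 1.31 to 1.98% of the reads, against 0.0943 to 0.191% in the other 18. Gm42418, a gene model that overlaps ribosomal RNA, took 11.3 to 20.1%, against 2.62 to 5.7%, and the total was at most 8794202 reads, against at least 10138353. The sample numbers in the column headings of these 5 run in sequence, from 19 to 23, but so do those of each group, so this does not set the 5 apart. Only the heading of anti-γδ-TCR replicate 3 holds the mark rep, and its meaning is not given. Whether replicate 4 was mislabelled, or the 5 libraries were prepared apart from the rest, was not tested and cannot be told from the files, and either would change what a difference between these groups means. The main results on the IL-38 KO groups are therefore given with and without replicate 4. Nothing in the sources used here says whether tumors of 1 mouse were used more than once, so p-values measure the spread between these libraries.

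Cells take up iron bound to transferrin through the transferrin receptor, encoded by Tfrc, reduce it in the endosome with Steap3 and pass it to the cytosol through Slc11a2. Iron that is not used is stored in ferritin or leaves the cell through ferroportin, and iron held in heme is released by heme oxygenase, encoded by Hmox1. The 2 iron regulatory proteins, encoded by Aco1 and Ireb2, bind a hairpin in the mRNA, the iron-responsive element, when iron is scarce. A hairpin in the 5′ UTR then blocks translation, and hairpins in the 3′ UTR of Tfrc protect the mRNA from decay. Macrophages are known for recycling iron from heme, and ferritin, ferroportin and heme oxygenase are prominent in them.

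A search for this hairpin in the reference transcripts found it in 4 of the 10 genes. The search asked for an unpaired C, a stem of 5 bases, the loop CAGTGN with N not G, and a stem of 5 bases that pairs with the first, with G-T pairs allowed, and it looked only in UTRs and on the transcribed strand. Of 21901 protein-coding genes, 123 (0.562%) hold a match. The sequences are shown because they mark which of the genes described below hold a match and on which side of the coding sequence. They come from GENCODE M21 transcripts on GRCm38, 5′ to 3′, with the unpaired C and the loop in capitals.
Fth1, 5′ UTR: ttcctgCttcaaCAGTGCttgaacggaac
Ftl1, 5′ UTR: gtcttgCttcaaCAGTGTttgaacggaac
Slc40a1, 5′ UTR: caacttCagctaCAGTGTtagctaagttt
Tfrc, 3′ UTR, loop at base 3327: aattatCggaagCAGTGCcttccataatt
Tfrc, 3′ UTR, loop at base 3706: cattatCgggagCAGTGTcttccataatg
Tfrc, 3′ UTR, loop at base 3771: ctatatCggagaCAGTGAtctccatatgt
Tfrc, 3′ UTR, loop at base 3818: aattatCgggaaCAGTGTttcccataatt
The loop started at base 99 of the Fth1 transcript, base 90 of Ftl1 and base 102 of Slc40a1, before the coding sequence, and the matches of Tfrc lie after it, in a transcript of 4890 bases. Slc11a2, Steap3, Hmox1, Flvcr1, Aco1 and Ireb2 held no such letters in the UTRs searched. A hairpin with a bulge or a mismatch in this stem would have been missed. A gene without a match may therefore still carry the element, and a gene with matches may carry more. Among the other iron and heme genes listed, Alas2, the erythroid enzyme of heme synthesis, held one.

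Levels across the 5 groups were compared on the CPM scale. Levels are compared between groups and not between genes. Fth1 had a mean of 6056 ± 914 (SD, n = 5) in isotype IgG, 4990 ± 941 (n = 6) in anti-IL-38, 3739 ± 717 (n = 4) in WT IgG, 2907 ± 1129 (n = 4) in IL-38 KO IgG and 1496 ± 448 (n = 4) in IL-38 KO with anti-γδ-TCR. Hmox1 followed the same order, at 87.9 ± 16.1, 61.3 ± 7.81, 56.6 ± 14.6, 36.1 ± 19.6 and 8.85 ± 4.31 CPM. In both genes, with all libraries, the ranges of neighbouring groups overlapped. The anti-γδ-TCR group was lowest in mean for 7 of the 10 genes, highest for Ireb2, the fourth for Tfrc and the third for Aco1. With all libraries, Flvcr1 was the only gene of the 10 in which neighbouring groups in the order did not overlap. It had 14.4 to 16.6 CPM in the anti-γδ-TCR group and 22.99 to 31.8 in WT IgG, the next group up. Without replicate 4 of IL-38 KO IgG, the anti-γδ-TCR group did not overlap its neighbour in Fth1, Hmox1, Steap3 and Ireb2 either. The share of all genes with such a gap was not computed on this scale, with or without replicate 4. Flvcr1 was also chosen on its measured expression, so these gaps are a description and not a result about the 10 genes. All anti-γδ-TCR libraries are among those rich in pseudogene reads. For Tfrc the order was isotype IgG (134.4 ± 73.7), IL-38 KO IgG (128.4 ± 4.90), anti-IL-38 (108.2 ± 65.5), anti-γδ-TCR (90.2 ± 36.8) and WT IgG (59.7 ± 16.8), so the controls of the 2 experiments, both WT, stood at opposite ends, and for Ftl1 it was anti-IL-38 (388.2 ± 191.1), WT IgG (214.9 ± 139.6), IL-38 KO IgG (103.7 ± 180.1), isotype IgG (57.8 ± 44.8) and anti-γδ-TCR (29.8 ± 16.7). The groups of the 2 experiments differed in treatment, start and control antibody, so a difference between experiments cannot be told apart from these.

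**Figure D1:**
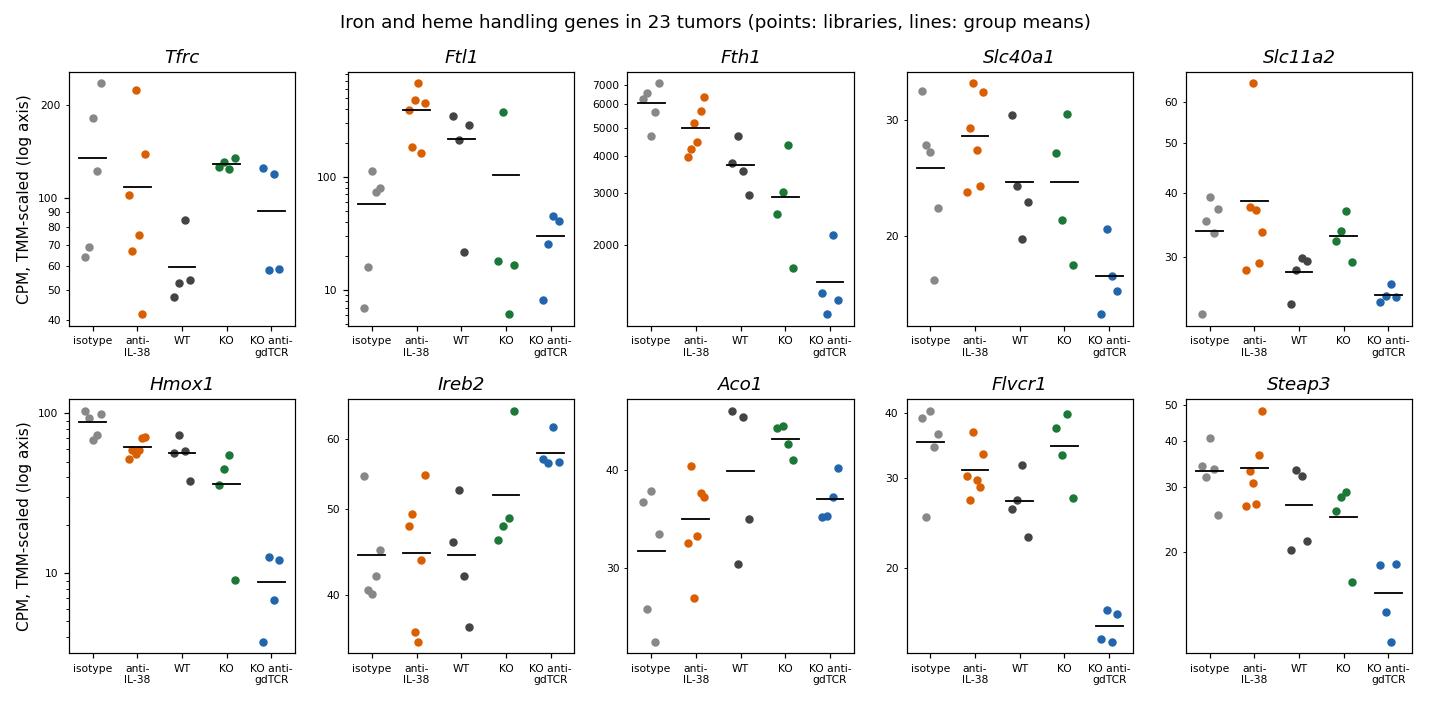
CPM (TMM-scaled, log axes that differ between panels) of each gene in 23 libraries, by group; points are libraries and lines are group means. Flvcr1 with anti-γδ-TCR sits at 14.4 to 16.6 CPM, below all other libraries, while Ftl1 spreads widely within groups.

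Neutralization of IL-38 was examined first. None of the 10 genes passed the test between anti-IL-38 and isotype IgG (limma, Benjamini-Hochberg adjusted over 16002 genes), and 0% of all genes did. At an unadjusted p under 0.05 there were 1682 genes. With the reads themselves, edgeR called 0 genes and DESeq2 75 (0.469%), and the latter held Ftl1 and none of the 7 genes chosen by function. Of the 10 genes 4 had a higher and 6 a lower mean, with a median log2 fold change of -0.01, against 0.00 over all genes tested.

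Ftl1, the light chain of ferritin, which helps iron to settle in the mineral core, had the largest difference of the 10 genes. Its normalized counts in isotype IgG were 89.7, 206.9, 1420, 927.0 and 1028 in replicates 1 to 5. In anti-IL-38 they ran from 2013 through a median of 5281 to 8415. All 6 libraries with anti-IL-38 lay above all 5 with isotype IgG, with a log2 fold change of 3.17 ± 0.64 (SE) on the log2(normalized count + 1) scale. Groups that do not overlap were found for 1.04% of the genes tested in this comparison, and Ftl1 was the only one of the 10. Since Ftl1 was chosen on its measured expression, its separation is a description, and this share does not measure how rare it is. Its reads may also be shared with copies of the gene, as described below.

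Fth1, the heavy chain, which oxidizes iron for storage, was lower in mean where the light chain was higher. It had normalized counts of 80090, 83958, 59425, 71288 and 90936 in isotype IgG and 49559 to 80967 (median 61163) in anti-IL-38. The ranges overlapped, and the log2 fold change was -0.30 ± 0.18 (limma, adjusted p = 0.552).

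Hmox1, the inducible heme oxygenase, had the lowest p of the 7 genes tested. It read 1327, 1203, 862.4, 925.2 and 1283 in isotype IgG and 652.2 to 904.1 (median 739.3) in anti-IL-38. The highest 2 anti-IL-38 libraries reached into the isotype range, and the log2 fold change of -0.53 ± 0.14 did not pass (limma, adjusted p = 0.376). The summed level of 10 macrophage genes was 2157 to 2921 CPM with anti-IL-38 and 2563 to 3384 with isotype IgG, and its part in the Hmox1 difference was not tested.

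Tfrc spread widely in both groups, from 819.5 to 3022 in isotype IgG and from 522.9 to 2847 in anti-IL-38, with a log2 fold change of -0.35 ± 0.42. Flvcr1, a heme exporter, lay at 321.8 to 511.4 and 337.9 to 467.8, with a log2 fold change of -0.19 ± 0.14. Slc40a1, Slc11a2, Aco1, Ireb2 and Steap3 had log2 fold changes from -0.02 (Ireb2) to 0.17 (Slc40a1), Steap3 at 0.00, and their adjusted p ranged from 0.745 to 0.995 (limma).

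Of the other iron and heme genes listed, 57 were tested and 0 passed, with 35 higher and 22 lower in mean and a median log2 fold change of 0.09. The lowest p belonged to Slc25a28, a mitochondrial iron importer (0.74 ± 0.25, adjusted p = 0.418 by limma). Steap4, a metalloreductase, had a log2 fold change of 1.24 ± 0.46 and Tmprss6, which restrains hepcidin in liver, one of 1.96 ± 0.72, both with an adjusted p of 0.425 (limma). Tmprss6 rests on normalized counts of 0 to 14.2. By list, 8 of 10 iron uptake genes were higher in mean (median 0.56), as were 10 of 13 heme synthesis genes (0.10), 6 of 12 genes of heme uptake, export and breakdown (-0.03), 6 of 12 of iron-sulfur cluster assembly (0.00), 3 of 6 of iron storage and delivery (-0.04) and 2 of 4 of iron export and its control (0.15), against a median of 0.00 over all genes. Luminal epithelial genes (10 of 10 higher, median 0.66) and fibroblast genes (8 of 8, 0.63) had higher means beside the uptake list, as did T cell genes (7 of 7, 0.86) and endothelial genes (6 of 6, 0.17), and cell cycle genes had lower ones (10 of 10, -0.35). None of these marker genes was called, and their part in the list was not tested.

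**Figure D2:**
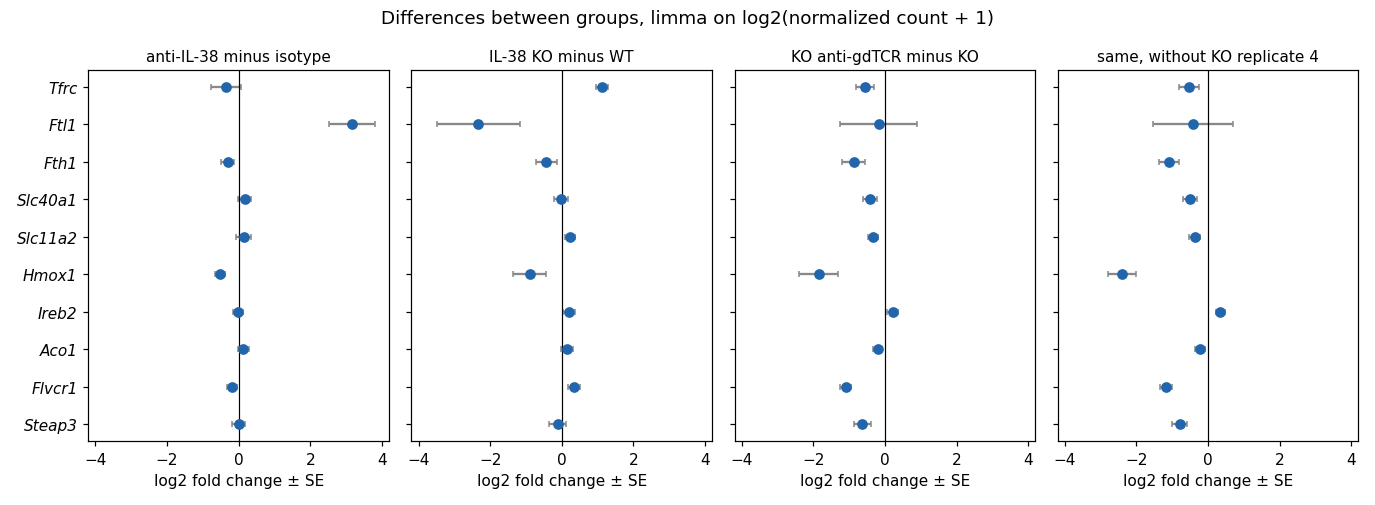
Log2 fold changes with their standard errors for the 10 genes, from limma on log2(normalized count + 1), in 3 comparisons and in the anti-γδ-TCR comparison without replicate 4 of IL-38 KO IgG. Ftl1 is at 3.17 for anti-IL-38 and at -2.33 for the knockout, and Hmox1 at -1.85 and -2.41 in the last 2 panels.

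The knockout was compared with WT in tumors that all received control IgG. None of the 10 genes passed (limma), and 1 of 16563 genes (0.00604%) did. At an unadjusted p under 0.05 there were 2010. DESeq2 called 298 (1.8%), which held Tfrc and none of the 7 genes chosen by function, and edgeR called 0. Of the 10 genes 5 had a higher and 5 a lower mean, with a median log2 fold change of 0.06, against 0.01 over all genes.

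Tfrc, the receptor that carries transferrin-bound iron into cells, with the 4 matches in its 3′ UTR, was higher in the knockout. It read 1533, 1600, 1531 and 1677 in IL-38 KO IgG and 589.6, 671.0, 1045 and 662.4 in WT IgG. The groups did not overlap, as in 7.06% of all genes tested here, and Tfrc was the only one of the 10. Since Tfrc was chosen on its measured expression, its separation is a description, and this share does not measure how rare it is. The log2 fold change was 1.13 ± 0.17, and 1.10 ± 0.18 without replicate 4. The knockout libraries kept within a narrow range, while the isotype IgG tumors of the other experiment, which are also WT, ran from 819.5 to 3022. Tfrc is known to be high in dividing cells. Cell cycle genes had a summed level of 570.4 to 776.4 CPM in IL-38 KO IgG and 573.3 to 659.8 in WT IgG, and their part in the difference was not tested.

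Ftl1 was lower in mean in the knockout, but its libraries were split within each group. Normalized counts were 221.7, 4583, 76.3 and 210.1 in IL-38 KO IgG and 4260, 2682, 267.7 and 3492 in WT IgG. Replicate 2 of the knockout was above every WT library, and replicate 3 of WT was near the other knockouts. The log2 fold change was -2.33 ± 1.16, and -2.08 ± 1.22 without replicate 4. It was -3.56 without replicate 2 of the knockout, and -1.07 with DESeq2 and -1.06 with edgeR, which compare mean levels rather than mean log values, so its size depends on the method and on that library.

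Hmox1 read 434.1, 553.7, 676.6 and 112.8 in IL-38 KO IgG and 708.1, 933.0, 718.8 and 464.7 in WT IgG. The lowest value belonged to replicate 4, and the log2 fold change went from -0.89 ± 0.47 (limma, adjusted p = 0.455) to -0.33 ± 0.23 (adjusted p = 0.550) without it. Macrophage genes in that library summed to 967.7 CPM, against 2054 to 2634 in WT IgG and 1700 to 2261 in the other knockouts, and their part in the Hmox1 values was not tested. Fth1 likewise went from -0.44 ± 0.29 (limma, adjusted p = 0.557) to -0.21 ± 0.25 (adjusted p = 0.749).

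Flvcr1 read 458.4, 407.8, 493.9 and 341.3 in IL-38 KO IgG and 324.7, 345.9, 393.0 and 282.3 in WT IgG, with a log2 fold change of 0.33 ± 0.16. Without replicate 4 it was 0.43 ± 0.16, and every other knockout library then lay above WT, as in Tfrc and Slc11a2. The share of all genes with such groups was not computed in this setting, and it was 7.06% with all libraries. Flvcr1 and Tfrc were also chosen on their measured expression. These separations are therefore a description and not a result about the iron and heme handling genes. Slc11a2, the divalent metal transporter, had a log2 fold change of 0.22 ± 0.14 (limma, adjusted p = 0.525). Slc40a1, Steap3, Aco1 and Ireb2 differed by -0.11 to 0.21 on the log2 scale, with adjusted p from 0.620 to 0.967 (limma). Without replicate 4, Slc11a2 was at 0.27 ± 0.14 (adjusted p = 0.427) and the other 4 lay between 0.07 and 0.17, so that Slc40a1 (-0.02 to 0.10) and Steap3 (-0.11 to 0.07) changed sign.

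Among 55 other iron and heme genes tested, 0 passed and 31 were higher in mean. Haptoglobin (Hp), which binds free hemoglobin, had the smallest p, with 407.8 to 551.4 in IL-38 KO IgG against 656.3 to 959.4 in WT IgG and a log2 fold change of -0.74 ± 0.16 (limma, adjusted p = 0.210). Slc46a1, a folate and heme carrier, had 0.61 ± 0.18 (adjusted p = 0.260, limma) and Iscu, the scaffold for iron-sulfur clusters, 0.87 ± 0.30 (adjusted p = 0.310, limma). By list, 8 of 9 iron uptake genes were higher in mean (median 0.35), as were 7 of 13 of heme synthesis (0.04), 8 of 12 of iron-sulfur cluster assembly (0.08), 4 of 6 of iron storage and delivery (0.11) and 1 of 3 of iron export and its control (-0.13). Of the genes of heme uptake, export and breakdown 9 of 12 were lower (-0.26), and 9 of 10 macrophage genes were lower beside them (-0.48), as were 3 of 4 erythroid genes (-0.87) and 6 of 7 T cell genes (-0.82), with 0 called in any of these lists, and their part was not tested. Without replicate 4 these 4 medians became -0.19, -0.22, -0.72 and -0.64. Without it the uptake list had 7 of 9 higher (0.51), heme synthesis 7 of 13 (0.01), iron-sulfur cluster assembly 9 of 12 (0.06) and export and its control 1 of 3 (-0.11), and storage and delivery had 3 of 6 higher with a median of -0.06, which changed sign.

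The antibody and the knockout were also pooled, with 10 libraries in which IL-38 was inhibited against 9 controls, which share all their libraries with the 2 comparisons above. None of the 10 genes passed (limma), nor did any of 16352 genes (0%). At an unadjusted p under 0.05 there were 1725, edgeR called 1 and DESeq2 70, none of them among the 10. These fits held no term for the experiment. With such a term, limma called 1 gene, not among the 10, and 2415 genes had an unadjusted p under 0.05. The pooled fold changes that follow are without that term. Hmox1 had a log2 fold change of -0.64 ± 0.30 (limma, adjusted p = 0.456), and -0.38 ± 0.18 without replicate 4 of IL-38 KO IgG (adjusted p = 0.478), and the other 6 genes tested lay between -0.32 (Fth1) and 0.19 (Slc11a2). Among the other iron and heme genes 0 of 55 passed, and the smallest p belonged to genes of uptake, Scara5, a ferritin receptor (0.92 ± 0.31, adjusted p = 0.331), Steap4 (0.94 ± 0.37, adjusted p = 0.393) and Lcn2, which binds siderophores (0.49 ± 0.21, adjusted p = 0.430, limma). All 9 uptake genes tested were higher in mean, with a median of 0.49, beside 10 of 10 luminal epithelial genes (0.29) and 8 of 8 fibroblast genes (0.40). For the difference between the antibody effect and the knockout effect, 1 gene of 16352 passed (0.00612%) and none of the 10 (limma). Hmox1 differed by 0.37 ± 0.48 between the 2 effects (adjusted p = 0.873), and the adjusted p of the 7 genes tested was 0.809 to 0.986. Of the other iron and heme genes 0 of 55 passed this test. Their smallest p belonged to Ppox (1.40 ± 0.52, adjusted p = 0.586), Hp (0.89 ± 0.37, adjusted p = 0.595) and Cd163 (1.79 ± 0.75, adjusted p = 0.597, limma). The difference for Ftl1 was 5.51 ± 1.40 and that for Tfrc -1.48 ± 0.55, given as a description. Without replicate 4 they were 5.25 ± 1.49 and -1.45 ± 0.59, and that for Hmox1 was -0.20 ± 0.27 (limma, adjusted p = 0.907), which changed sign, as did those for Fth1 (0.14 to -0.10) and Steap3 (0.11 to -0.07). For Ftl1 DESeq2 gave 3.81 and edgeR 3.82.

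Blockage of the γδ TCR was examined in IL-38 KO tumors, in a table with its own normalization. The IL-38 KO IgG libraries are the same as in the knockout comparison, so the 2 comparisons share them. None of the 10 genes passed with all 8 libraries (limma, 0% of 16481 genes), while 3570 genes had an unadjusted p under 0.05. DESeq2 called 1030 (6.25%), with Fth1 and Hmox1 among the 7 genes chosen by function, and Flvcr1, all lower with anti-γδ-TCR, and edgeR called 0. Of the 10 genes 9 had a lower mean with anti-γδ-TCR, with a median log2 fold change of -0.48, against 0.02 over all genes tested. Without replicate 4 of IL-38 KO IgG, limma called 2357 of 16480 genes (14.3%), 800 of them lower (4.85%), and 3 of the 7 genes chosen by function, Fth1, Hmox1 and Steap3, and Flvcr1, 4 of the 10, all lower. In that comparison all anti-γδ-TCR libraries have the high share of pseudogene reads and no remaining control has it, so the antibody and this property of the libraries cannot be told apart.

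Hmox1 showed the largest difference. It read 325.9, 419.7, 522.7 and 88.4 in IL-38 KO IgG and 36.6, 123.6, 66.9 and 117.7 with anti-γδ-TCR. Replicate 4 of the controls lay within the anti-γδ-TCR range, and the other 3 lay above it. The log2 fold change was -1.85 ± 0.56 (limma, adjusted p = 0.0872) and -2.41 ± 0.39 without replicate 4 (adjusted p = 0.00134).

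Fth1 and Steap3, the endosomal ferrireductase, had the same arrangement. Fth1 read 23439, 28168, 41896 and 16331 in IL-38 KO IgG and 13401, 11288, 21086 and 12622 with anti-γδ-TCR, a log2 fold change of -0.87 ± 0.31 (limma, adjusted p = 0.135) and of -1.09 ± 0.28 without replicate 4 (adjusted p = 0.0216). Steap3 read 238.1, 262.1, 278.8 and 162.3 against 180.5, 133.9, 112.2 and 180.5. Its log2 fold change was -0.63 ± 0.23 (limma, adjusted p = 0.141) and -0.80 ± 0.21 without replicate 4 (adjusted p = 0.0279). In both genes replicate 4 lay within the anti-γδ-TCR range and the other controls did not.

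Flvcr1 differed from this, since replicate 4 stayed with its own group. It read 344.1, 309.2, 381.5 and 267.3 in IL-38 KO IgG and 142.6, 161.4, 141.1 and 158.4 with anti-γδ-TCR. The groups did not overlap, with a log2 fold change of -1.09 ± 0.16 and of -1.18 ± 0.16 without replicate 4. This is a description, since Flvcr1 was chosen on its measured expression. Slc11a2 (287.1 to 352.9 against 240.7 to 260.5) and Aco1, the cytosolic aconitase that doubles as an iron regulatory protein (403.1 to 423.8 against 339.9 to 391.7), did not overlap either, and 9.54% of all genes tested here did not. Their log2 fold changes were -0.33 ± 0.13 (limma, adjusted p = 0.183) and -0.21 ± 0.12 (adjusted p = 0.361), and -0.37 ± 0.15 (adjusted p = 0.142) and -0.22 ± 0.14 (adjusted p = 0.359) without replicate 4.

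Tfrc read 1151, 1213, 1183 and 1313 in IL-38 KO IgG and 1224, 566.5, 1163 and 570.0 with anti-γδ-TCR. Replicates 1 and 3 of the treated group lay among the controls, and replicates 2 and 4 lay below every control, with a log2 fold change of -0.56 ± 0.26, and of -0.52 ± 0.28 without replicate 4 of the controls. Slc40a1, which exports iron, had a log2 fold change of -0.40 ± 0.20 (limma, adjusted p = 0.263), and -0.52 ± 0.20 (adjusted p = 0.117) without replicate 4. Ireb2, the second iron regulatory protein, was the only one with a higher mean, at 0.22 ± 0.15 (limma, adjusted p = 0.453), and at 0.34 ± 0.13 (adjusted p = 0.123) without replicate 4. The groups then did not overlap in Ireb2, nor in Fth1, Hmox1, Steap3, Flvcr1, Slc11a2 and Aco1. The share of all genes with such groups was not computed without replicate 4, and it was 9.54% with all libraries. These separations are therefore a description and not a result about the 10 genes. Ftl1 read 166.4, 3474, 58.9 and 164.6 against 79.8, 247.2, 437.8 and 399.4, overlapping, with a log2 fold change of -0.18 ± 1.07, and of -0.42 ± 1.12 without replicate 4. It was 1.04 without replicate 2 of the controls, 0.35 without replicate 1 of the treated group, and -1.73 with DESeq2 and -1.78 with edgeR, so no direction can be given for Ftl1 in this comparison.

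The summed level of macrophage genes was lowest in the libraries where Hmox1 was lowest. It was 886.8 to 1260 CPM with anti-γδ-TCR, 967.7 in replicate 4 of IL-38 KO IgG and 1700 to 2261 in the other controls, with 10 of 10 genes found and none at 0. Of the 10, 0 passed with all libraries, and without replicate 4, 5 were lower, Cd68 (-2.69 ± 0.23), Mertk (-1.81 ± 0.19), Adgre1 (-1.69 ± 0.25), Csf1r (-1.60 ± 0.23) and C1qb (-1.25 ± 0.21), with adjusted p of 1.26e-05 to 0.00203 (limma). The other 5 did not pass, at 0.21 for Cd14, -0.08 for Fcgr1, -0.09 for C1qa, -0.56 for C1qc and -0.58 for Mrc1. Cell cycle genes summed to 327.7 to 541.8 CPM with anti-γδ-TCR and 570.4 to 776.4 in the controls, and 10 of 10 were lower in mean (median -0.72), as 8 of 10 macrophage genes were (-0.72). None of them passed with all libraries, and without replicate 4 Pcna (-1.26 ± 0.24, adjusted p = 0.00355) and Bub1 (-1.18 ± 0.30, adjusted p = 0.0218) were lower (limma). Of the luminal epithelial genes 1, Krt18, was higher without replicate 4 (0.69 ± 0.16, adjusted p = 0.0115, limma). T cell genes had higher means in 7 of 7 (0.52), with 0 called. Erythroid genes summed to 42.7 to 152.1 CPM against 45.7 to 182.7, with 3 and 2 of the 10 genes at 0. Their part in the differences of the iron genes was not tested.

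Among 55 other iron and heme genes tested, 0 passed with all 8 libraries, and without replicate 4, 1 was higher and 2 were lower. Slc48a1, which moves heme out of the lysosome, read 821.5 to 963.9 with anti-γδ-TCR and 993.9 to 3227 in IL-38 KO IgG, where the groups did not overlap. Its log2 fold change was -1.19 ± 0.30 (limma, adjusted p = 0.0657) and -1.54 ± 0.15 without replicate 4 (adjusted p = 4.04e-05). Blvra, biliverdin reductase, which works next after heme oxygenase, had -0.82 ± 0.24 without replicate 4 (limma, adjusted p = 0.0490). Urod, an enzyme of heme synthesis, had 0.56 ± 0.17 (adjusted p = 0.0472, limma). Cpox, of the same pathway, had -0.68 ± 0.21 (limma, adjusted p = 0.0879) and Hmox2, the constitutive heme oxygenase, -0.45 ± 0.15 (adjusted p = 0.108), both with all libraries. By list, with all libraries, 9 of 13 heme synthesis genes were lower in mean (median -0.10), as were 7 of 12 of heme uptake, export and breakdown (-0.18) and 8 of 12 of iron-sulfur cluster assembly (-0.21). The uptake list had 5 of 9 higher (0.27), storage and delivery 5 of 6 (0.31) and export and its control 2 of 3 (0.41). Without replicate 4 these medians were, in the same order, -0.10, -0.25, -0.20, 0.08 (5 of 9 higher), 0.43 (4 of 6) and 0.36 (2 of 3).

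**Figure D3:**
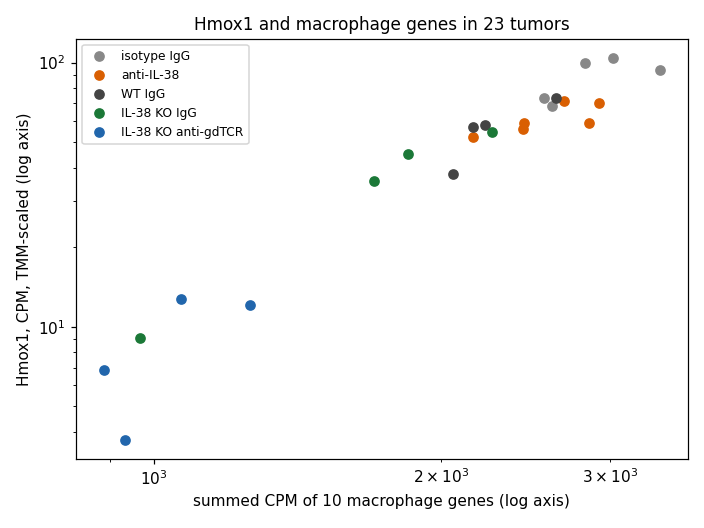
Hmox1 (CPM, log axis) against the summed CPM of 10 macrophage genes (log axis) in 23 libraries, colored by group. The anti-γδ-TCR libraries and replicate 4 of IL-38 KO IgG lie at the low end of both axes, at 886.8 to 1260 CPM of macrophage genes.

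The relation of the 7 tested genes to macrophage, erythroid and cell cycle genes was examined across 19 tumors, as deviations from the group means of log2 values, in 22 relations that include Hmox1 with Slc40a1. Hmox1 rose and fell with the macrophage genes (Pearson's r = 0.925, adjusted p = 0.00242, permutation test with 100000 resamples within groups; Spearman's rho = 0.806, adjusted p = 0.0108). Pearson's r was 0.649 among the 11 tumors of the neutralization experiment (adjusted p = 0.334, permutation test) and 0.975 among the 8 of WT and IL-38 KO IgG (adjusted p = 0.0382, exact permutation test within groups), and 0.741 over all without replicate 4 of IL-38 KO IgG. Leaving out the 2 tumors farthest from the median of the macrophage genes gave r = 0.700 with an adjusted p of 0.0763 (permutation test), so the call rests on those tumors. For Fth1 the same relation had r = 0.800 (adjusted p = 0.0306, permutation test) and rho = 0.629 (adjusted p = 0.109), with r = 0.631 without those 2 tumors (adjusted p = 0.271, permutation test), 0.438 within neutralization and 0.933 among WT and IL-38 KO IgG. Over all tumors without replicate 4 of IL-38 KO IgG it was 0.684. The other 20 relations did not pass over the 19 tumors. Steap3 with macrophage genes had r = 0.602 (adjusted p = 0.0849, permutation test) and rho = 0.621 (adjusted p = 0.109), with 0.393 without the 2 farthest tumors, and passed among WT and IL-38 KO IgG (r = 0.787, adjusted p = 0.0382, exact permutation test). Over all tumors without replicate 4 of IL-38 KO IgG its r was 0.405. The WT and IL-38 KO IgG set includes replicate 4 and was not tested without it. Of the others the highest, Slc11a2 with erythroid genes, had r = 0.704 (adjusted p = 0.0511, permutation test), 0.777 within neutralization, -0.0714 among WT and IL-38 KO IgG and 0.256 without the 2 farthest tumors.

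Ferritin light chain reads may be shared with copies of the gene. Of 326 windows of 75 bases in the last 400 bases of the Ftl1 transcript, 190 (58.3%) also occur in another listed gene model, in 5 of them, and 17 (5.2%) of those of Fth1. No such window was found in the other 8 genes. Ftl1-ps1, the closest copy, matched 99.6% of 910 bases. How reads that match several places were counted is not given in the sources used here, so Ftl1 is uncertain where reads could have been split or dropped.

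Reads were also counted on the copies themselves. The listed copies of Ftl1 held 5 to 24 reads in 18 libraries, beside 95 to 7143 reads of Ftl1, and 8 to 126 in the 5 libraries rich in pseudogene reads, beside 61 to 363. This is 12.8 to 52.1% of the Ftl1 reads in these 5 and 0.118 to 22.8% in the 18, where the share was highest in the libraries with least Ftl1, replicate 3 of IL-38 KO IgG (22.8%) and replicate 1 of isotype IgG (17.9%). Of these copies, Gm4919 had 6 to 123 reads in the 5 libraries rich in pseudogene reads, against 0 in the 18. Gm15590 had 0 reads in the 5 libraries and at most 12 in the 18. Of the copies of Fth1, Fth-ps2 had 251 to 292 reads in the 5 libraries and at most 2 elsewhere, and Gm6977 had 42 to 79 and at most 4, beside 9863 to 14788 reads of Fth1. Adding the reads of the copies to the gene gave log2 fold changes for Ftl1 of 3.10 ± 0.62 with anti-IL-38, -2.22 ± 1.12 in the knockout and 0.03 ± 1.05 with anti-γδ-TCR, so the last changed sign.

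The light chain varied far more than the heavy chain from tumor to tumor. Ftl1 counted 1.12 to 149.3 reads per 1000 reads of Fth1 over the 23 libraries, with 1.12 and 2.46 in replicates 1 and 2 of isotype IgG and 149.3 in replicate 4 of anti-IL-38. The SD of log2 values within groups was 1.73 for Ftl1, above that of 99.2% of 11720 genes whose normalized counts averaged 50 or more, and 0.35 for Fth1. Tfrc had 0.67 (above 91.8%) and Flvcr1 0.22 (above 21.5%), with a median of 0.31 over all these genes.

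**Figure D4:**
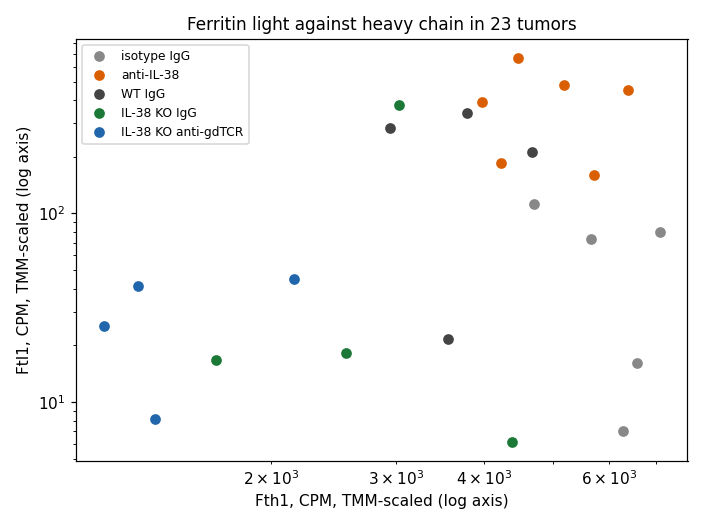
Ftl1 against Fth1 (CPM, log axes) in 23 libraries, colored by group. Libraries with alike Fth1 differ widely in Ftl1, as in isotype IgG, where Ftl1 runs from 7.04 to 112.4 CPM.

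Genes whose pattern over 19 libraries was most like that of Ftl1, by Pearson's r of deviations from the group means among 11720 genes, were Psap (0.974), which encodes the precursor of lysosomal saposins, Mapk3 (0.948), a kinase of the MAP kinase pathway, and Rps18 (0.946), a protein of the small ribosomal subunit. The 4 genes were low in the same libraries. In replicate 1 of isotype IgG, Ftl1 read 89.7, Psap 355.0, Mapk3 592.9 and Rps18 62.3, and in replicate 4 of anti-IL-38 they read 8415, 13808, 3537 and 4221. Replicate 3 of WT IgG and replicate 3 of IL-38 KO IgG were low in all 4 as well. Like Ftl1, Psap did not overlap between anti-IL-38 (3836 to 13808) and isotype IgG (355.0 to 3726). Mapk3 and Rps18 did overlap between these groups. For Hmox1 the most alike genes were Myo1f (0.985), Gstm1 (0.983) and Cybb (0.982), a subunit of the phagocyte oxidase. For Tfrc they were Tmem97 (0.899), Slc39a10 (0.880), a zinc transporter, and Lmf2 (0.872), and for Slc40a1 Fggy (0.809), Pqbp1 (0.777) and Rwdd4a (0.777). All these values are descriptions of 19 shared libraries.

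**Figure D5:**
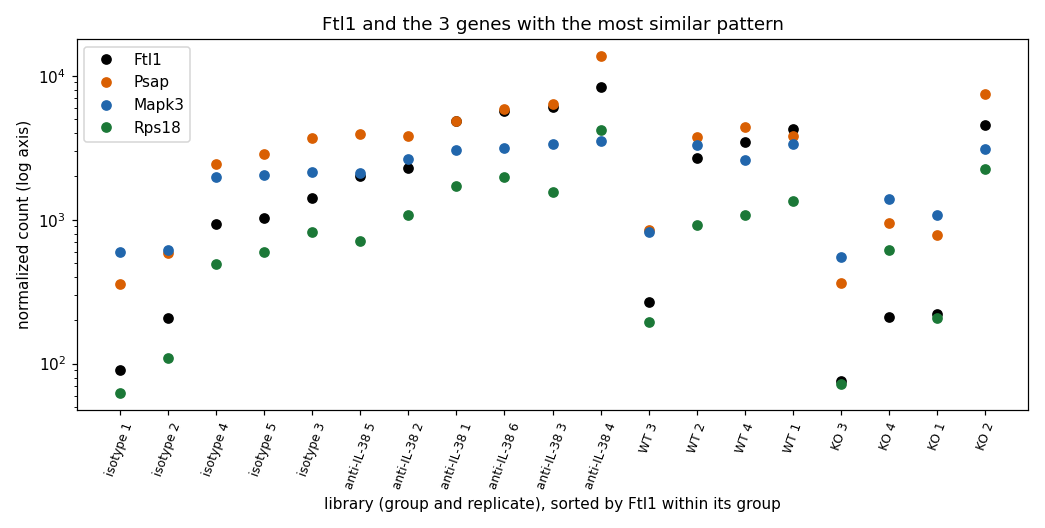
Normalized counts (log axis) of Ftl1, Psap, Mapk3 and Rps18 in the 19 libraries of the larger table, sorted by Ftl1 within each group. The 4 genes are low together, as in replicate 1 of isotype IgG, where Rps18 is at 62.3 normalized counts.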

How the data were processed

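RNA from dissociated PyMT tumors was sequenced by QuantSeq 3′ mRNA-seq (single reads) and processed by the authors with the BlueBee QuantSeq pipeline. The submitters' processing notes name STAR, HTSeq, DESeq2 and GRCm39, without versions. What the authors deposited is a signal, normalized counts, for which every library had been divided by its own size factor, in a table of 19 libraries and, separately, one of 8, and the 4 IL-38 KO IgG libraries stand in both with identical reads. Values divided by the value of 1 read gave whole numbers for 100% of values (in WT IgG replicate 1 that value was 0.996, too near 1 to tell from rounding), and these reads were used for edgeR, DESeq2 and depth. The total is 6273049 to 15879164 reads, and limits for a count of 0 (3 counts) cover counting error only.

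The log2 of the normalized count + 1 was compared by limma 3.58.1 (two-sided; R 4.3.3; moderated with a trend) for genes averaging 5 or more in the libraries compared, with Benjamini-Hochberg adjustment over all of them and a threshold of 0.05. A fold change on this scale understates the change of low genes. Each fit used only the libraries of its comparison within 1 table. Symbols and transcripts were taken from GENCODE M21 on GRCm38 (47224 of 47643 identifiers matched), and since this is another build than the submitters' notes name, no genome positions are given. Levels across 5 groups are CPM of whole reads with TMM factors from edgeR 4.0.16. Alternatives were pseudocounts of 0.5 and 5, no filter or a mean of at least 20, TMM, quantile normalization, edgeR, DESeq2 1.42.0, the reads of copies added, a term for the experiment, a block for the replicate number, and each library left out. The fits were tested on simulated data in which all genes had the same dispersion and only genes with higher counts were changed. This differs from these data, so it does not show how the fits do for genes as variable as Ftl1. Relations used 100000 resamples within groups, or all permutations where fewer exist.

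The genes and lists were chosen with earlier results of these data known. Named are the 10 genes, other listed iron and heme genes past the threshold or with the 3 smallest p in a comparison, ferritin copies with a mean of at least 5, and the 3 genes most like Tfrc, Ftl1, Hmox1 and Slc40a1. Replicate numbers give no pairing: same-numbered libraries correlated at -0.17 to 0.07.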

Additional observations from a re-analysis of the deposited data

Results flagged for a closer look

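In 50 groups of 4 to 6 libraries, 3 had 1 library far from the others by Dixon's criterion, and chance alone flags about 1 in 20 groups. Ftl1 was at 4583.19 normalized counts in replicate 2 of IL-38 KO IgG, against 76.3 to 221.7 in the other 3. Slc11a2 was at 831.6 in replicate 3 of anti-IL-38, against 354.1 to 469.1 in the other 5. Slc11a2 was also at 302.76 in replicate 1 of WT IgG, against 360.9 to 369.7 in the other 3. None of the 7 genes tested passed the interaction test between the antibody and the knockout effect (limma).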

How the results depend on the processing

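Counts of genes called moved with the test. DESeq2 called 70 genes for inhibited IL-38 against control, 75 for anti-IL-38, 298 for the knockout, 1030 for anti-γδ-TCR and 10 for the difference of the antibody and knockout effects, where limma called 0, 0, 1, 0 and 1, and, of the 10 genes, 1 for anti-IL-38, 1 for the knockout and 3 for anti-γδ-TCR, where limma called 0. edgeR called 1, 0, 0, 0 and 0, and the experiment as a term gave 1 for inhibited IL-38. Leaving out each library gave 0 to 23, 0 to 6, 0 to 7, 0 to 2357 and 0 to 2 genes, with 0 to 1 of the 10 for the knockout (Tfrc, without WT IgG replicate 3) and 0 to 4 for anti-γδ-TCR (without IL-38 KO IgG replicate 4). The 23 and the 6 came without isotype IgG replicate 3, and the knockout count was 7 without WT IgG replicate 3 or IL-38 KO IgG replicate 4. With the replicate number as a block, 1 gene passed for anti-IL-38 (6 libraries down to 5) and 0 for the knockout, and none of the 10 genes passed in any comparison. Of 22 relations, 2 passed, 0 without the 2 farthest tumors, 0 within neutralization and 3 among WT and IL-38 KO IgG, a set that includes IL-38 KO IgG replicate 4.

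Of 838 refits of the 40 fold changes of the 10 genes, 26 changed sign, 22 of them in genes that were tested, where the fold change was at most 0.14 on the log2 scale, and 3 in Ftl1 with anti-γδ-TCR (-0.18, from -1.78 with edgeR to 1.04 without IL-38 KO IgG replicate 2) and 1 in Flvcr1 with IL-38 inhibited. With anti-IL-38, Ireb2 was 0.0024 with DESeq2 and 0.0008 with edgeR, and Steap3 0.022, 0.020 and 0.005 with DESeq2, edgeR and TMM. Leaving out each library gave -0.0822 to 0.0583 for Ireb2, -0.1165 to 0.0706 for Steap3 and -0.0285 to 0.2173 for Slc11a2 with anti-IL-38, -0.1509 to 0.0987 for Slc40a1 and -0.2348 to 0.0664 for Steap3 in the knockout, and -0.1146 to 0.0587 for Steap3 with IL-38 inhibited. With anti-γδ-TCR, Hmox1 ran from -2.41 to -1.50, Fth1 from -1.09 to -0.64 and Steap3 from -0.80 to -0.49. The cause of these moves was not tested. In the shallow libraries the lowest counts were 28 reads of Hmox1, 61 of Ftl1 and 62 of Steap3.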
